A study of Homo sapiens with 30 samples.

Results

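U87 cells kept in interferon gamma (IFN-γ) for 14 days were compared with cells that received none. The group labelled D14 held 2 libraries that could be assigned by name (replicates 2 and 3) and the Untreated group held 3, so that 5 of the 13 named U87 libraries, and of the 30 samples of the series, entered the comparison. The members were these libraries and the 22918 genes, of 61471 rows in the U87 table, whose mean over the 13 libraries was at least 0.5 TPM, a unit scaled for transcript length and library size. U87 (U87-MG) is an established human glioblastoma line, labelled wild type in every group, and all cells grew in serum-containing medium. The labels give IFN-γ for D14, at 1 µg/mL in the protocol but at 1 µL/mL in the sample fields, and no treatment for the Untreated cells, whose collection they place at day 3. The study's methods name a lower concentration than the protocol and day 0, so that the dose is uncertain. No untreated culture was labelled day 14, so that IFN-γ exposure and days in culture cannot be told apart. The 2 D3 libraries (replicates 2 and 3), from cells given IFN-γ for 3 days, served as the nearest time point. The replicates were independent cultures of a single line whose identity was not authenticated, so that p-values describe the spread between cultures of that line.

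IFN-γ binds a receptor made of IFNGR1 and IFNGR2, which activates the kinases JAK1 and JAK2. The signal then acts through GAS elements on a first wave of genes, among them the transcription factor IRF1. IRF1 and complexes that hold STAT2 act through ISRE elements on antigen presentation genes, guanylate-binding proteins, chemokines and antiviral genes. In tumor cells the pathway is also known for raising the tryptophan-degrading enzyme IDO1 and the checkpoint ligand PD-L1, encoded by CD274.

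The levels of the IFN-γ targets IDO1, GBP1 and CXCL10 in the D14 libraries lay with those of the Untreated libraries and apart from those of the groups labelled D3, D28 and D28WO. IDO1 was listed at 0 in both D14 libraries and at 0.239, 0 and 0 TPM in Untreated, but at 81.3 and 85.9 TPM at D3. After 28 days of IFN-γ (D28) it was at 95.5, 107 and 130.4 TPM, and after 14 days of IFN-γ and 14 days without it (D28WO) at 135, 137 and 135 TPM. The highest IDO1 value of the 5 D14 and Untreated libraries was thus below the lowest of the other 8. The groups follow the labels, and whether the libraries of D14 or D28WO hold cells under the labelled exposure was not tested.

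Promoters of 4 genes are shown because they carry the elements through which the pathway acts and because their genes cover the patterns found at D14, with BST2 and IFITM1 higher than in Untreated and GBP1 and CXCL10 not. The sequences are the 250 bases before the RefSeq start, on the strand of the gene, in GRCh38.p14. Capitals mark matches, on either strand, to TTCNNNGAA (GAS) or to an ISRE pattern of GAAA, 2 free bases and GAAA again. BST2 lies on the minus strand (chr19:17405631-17405880), IFITM1 on the plus strand (chr11:313790-314039), GBP1 on the minus strand (chr1:89065209-89065458) and CXCL10 on the minus strand (chr4:76023498-76023747).
BST2: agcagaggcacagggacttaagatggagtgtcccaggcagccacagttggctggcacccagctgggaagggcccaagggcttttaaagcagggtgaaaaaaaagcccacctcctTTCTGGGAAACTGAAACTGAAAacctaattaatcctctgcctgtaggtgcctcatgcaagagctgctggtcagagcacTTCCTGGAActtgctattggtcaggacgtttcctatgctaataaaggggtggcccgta
IFITM1: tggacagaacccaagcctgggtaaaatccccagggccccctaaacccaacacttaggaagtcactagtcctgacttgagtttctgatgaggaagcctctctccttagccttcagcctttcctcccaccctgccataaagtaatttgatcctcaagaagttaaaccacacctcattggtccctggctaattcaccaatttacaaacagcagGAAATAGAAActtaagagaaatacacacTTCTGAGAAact
GBP1: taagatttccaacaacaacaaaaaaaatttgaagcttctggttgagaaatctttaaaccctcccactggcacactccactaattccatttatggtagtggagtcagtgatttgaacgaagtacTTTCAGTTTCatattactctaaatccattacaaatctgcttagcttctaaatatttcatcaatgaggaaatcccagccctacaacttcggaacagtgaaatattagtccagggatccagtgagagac
CXCL10: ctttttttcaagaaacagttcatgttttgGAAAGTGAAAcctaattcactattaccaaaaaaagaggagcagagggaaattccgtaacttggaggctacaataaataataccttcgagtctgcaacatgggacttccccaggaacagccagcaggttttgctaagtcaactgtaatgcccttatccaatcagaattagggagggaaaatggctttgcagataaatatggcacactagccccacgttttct
In BST2 a pair of ISRE matches, at 130 to 121 and 124 to 115 bases before the start, overlapped each other and a GAS match at 136 to 128, and a second GAS match lay at 58 to 50. IFITM1 held an ISRE match at 40 to 31 and a GAS match at 12 to 4 bases before the start. The single ISRE match of GBP1 lay at 127 to 118 and that of CXCL10 at 221 to 212. OAS2 and MX2, whose values follow, have no entry in the table of promoters used.

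The depth of each library cannot be read from TPM, which are scaled to 1 total, and the study's methods state a minimum number of reads per sample but not the number in each. The D14 libraries held 26301 and 27098 genes above 0 against 24223 to 25459 in Untreated (exact permutation test, two-sided, p = 0.1, the smallest that 10 splits of 2 against 3 allow). Long non-coding RNAs took 4.47% and 4.48% of TPM at D14 and 3.02 to 3.68% in Untreated (exact p = 0.1). VIM, CD44, FN1 and TNC, mesenchymal genes of this line, were at 411 TPM or more in all 5 libraries. Of the astrocyte marker GFAP 5.57 and 9.36 TPM were found at D14 and 2.33 to 6.90 in Untreated, and the neural stem cell factor SOX2 did not exceed 0.411 TPM. Some other such genes were more abundant. The 6 astrocyte markers, GFAP among them, summed to 95.4 and 111 TPM at D14 and to 95.8 to 128 TPM in Untreated. For 20 neural stem and glial identity genes the sums were 243 and 275 TPM at D14 and 250 to 300.5 TPM in Untreated. CDKN2A, which this line is known to have lost, was listed at 0 in 4 of the 5 libraries and at 1.58 TPM in Untreated replicate 2. The summed level of 8 leukocyte markers was 27.7 and 32.8 TPM at D14 against 28.5 to 42.9 in Untreated, with the defining marker PTPRC at 1.19 TPM or less.

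**Figure D1:**
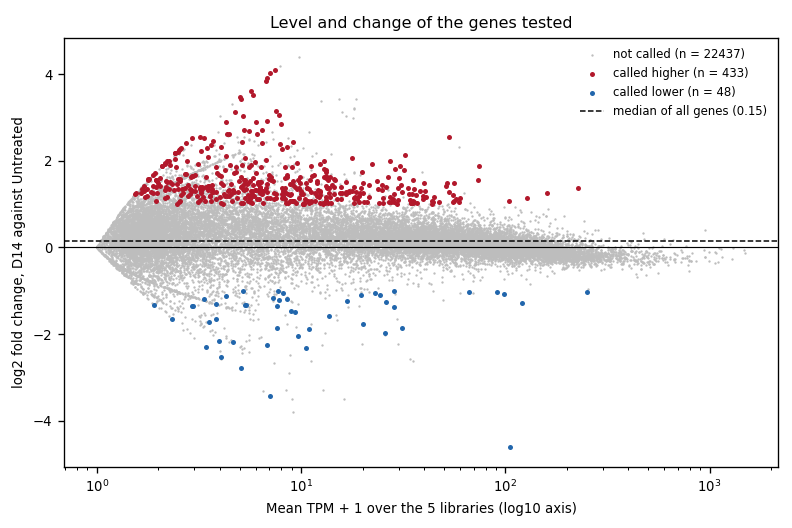
Log2 fold change of D14 against Untreated (y axis) by the mean TPM + 1 over the 5 libraries (x axis, log scale), 1 point per gene tested. The 433 higher genes are red, the 48 lower genes blue and the others grey, and the dashed line is the median of all genes at 0.15. The red points lie mostly at low and middle levels.

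Against Untreated, 433 genes were higher at D14 (1.89% of those tested) and 48 were lower (0.209%), with a Benjamini-Hochberg adjusted p under 0.05 in limma and an absolute log2 fold change over 1 on the log2(TPM + 1) scale. With the adjusted p as the only limit 4.14% were higher and 1.02% lower, and at an unadjusted p under 0.05 4096 were higher and 1168 lower of the 22918. The log2 fold change was positive in 65.7% of all genes tested. These shares are the background of the counts given by list. Genes past both limits are called higher or lower here. In bulk RNA, fewer cells with a transcript and less of it per cell cannot be told apart. The whole distribution was shifted, with a median log2 fold change of 0.15 over all genes that quantile normalization took to -0.0063 and median-ratio size factors to 4.5e-05, so that relative to it rises are smaller and falls larger by that amount. Without Untreated replicate 3 the median was 0.0855. The direction of the calls depended on this scaling. Of the calls 90.0% were higher as deposited, 78.4% with size factors (239 higher, 66 lower) and 55.4% with quantile normalization (118 higher, 95 lower). The counts also depended on single libraries, falling to 68 higher and 10 lower without D14 replicate 2, to 80 and 12 without D14 replicate 3 and to 171 and 36 without Untreated replicate 3. The lower genes numbered 24 without Untreated replicate 1 and 26 without Untreated replicate 2. Leaving out each of the 5 libraries in turn left 22 of the 433 and 5 of the 48 called every time. Both D14 libraries lay above all Untreated libraries for 29.5% of all genes tested and below them for 9.94%, so that separate groups alone are common. All 433 higher and all 48 lower genes had separate groups, so that separation is no further support for a call. With only the 2 compared groups in the fit, which estimates the spread from 5 libraries, 48 genes were higher and 3 lower. That fit called 24 of the 433 higher genes and 2 of the 48 lower genes.

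The rise was unevenly spread over levels and kinds of gene. Of the 433 higher genes 198 were long non-coding RNAs (45.7%) and 190 were protein-coding (43.9%), whereas 37 of the 48 lower genes were protein-coding. The median log2 fold change was 0.36 over 6055 long non-coding RNAs and 0.093 over 14636 protein-coding genes, with 3.27% and 1.30% called higher. By mean level over the 5 libraries, bins chosen after the values were seen, the median was 0.28 under 5 TPM (9404 genes), 0.31 from 5 to 20 TPM (3678 genes) and 0.13 from 20 to 100 TPM (6721 genes), and it was -0.083 from 100 to 300 TPM (2797 genes) and -0.21 at 300 TPM or more (318 genes). With size factors the 5 medians were 0.20, 0.14, -0.05, -0.26 and -0.40, so that the middle bin turned negative. After quantile normalization, which gives every library the same distribution of values, they lay between -0.0215 and -0.00297. The share of long non-coding RNA and the number of genes above 0, which also differed between the groups, moved with this pattern, and their part in it was not tested. At the expression limit, 500 genes had a mean of 0.5 to 0.55 TPM and 545 genes just outside had 0.45 to 0.5 TPM.

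Receptor and signaling genes were near their Untreated levels. Of the 11 tested, 0 were called and 1 passed the adjusted p alone (limma, 4 higher and 0 lower at an unadjusted p under 0.05), and their median log2 fold change was 0.22 beside 0.15 for all genes, or 0.075 with quantile normalization and 0.044 with size factors. IRF1, a transcription factor of the first wave, was at 134 and 109.8 TPM at D14 and at 136, 130.1 and 134 TPM in Untreated, with a log2 fold change of -0.13 ± 0.11 (SE). The groups overlapped, and both lay below the 445 and 450.1 TPM of D3. STAT2, a subunit of the ISRE-binding complex, was the gene past the adjusted p, at 60.2 and 59.2 TPM against 41.4, 45.3 and 39.3 TPM (log2 fold change 0.50 ± 0.08, limma adjusted p = 0.01, and 0.0544 with size factors). JAK2, a receptor kinase, was at 26.8 and 22.3 TPM against 16.3, 22.8 and 14.7 TPM and did not pass. The groups overlapped for JAK2 but not for STAT2. The ligand-binding receptor chain IFNGR1 was at 40.8 and 52.6 TPM, against 41.6, 34.7 and 33.0 TPM in Untreated.

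Antigen presentation showed no call either. Over 17 class I genes the median was -0.05 and over 14 class II genes 0.08, with 0 called in both lists (at an unadjusted p under 0.05 in limma, 3 higher and 3 lower in class I and 3 higher in class II). For the 5 immunoproteasome genes the median was -0.05, with 0 called and 0 at an unadjusted p under 0.05. With quantile normalization the 3 medians were -0.01, 0.04 and -0.07, and with size factors -0.24, -0.10 and -0.23, so that class II turned negative there. B2M, the light chain of every class I molecule, was at 871 and 951 TPM at D14 and at 1037, 876 and 930.4 TPM in Untreated (log2 fold change -0.05 ± 0.12). HLA-B, a class I heavy chain whose reads can be shared with its paralogs, passed the adjusted p with a lower level, at 290.1 and 266 TPM against 354, 329.7 and 407 TPM (-0.38 ± 0.10, limma adjusted p = 0.0451, but 0.366 with quantile normalization and 0.0736 with size factors). CANX, a chaperone of class I folding, was at 276 and 259.7 TPM against 328, 354 and 388 TPM (-0.41 ± 0.10, limma adjusted p = 0.035, but 0.267 with quantile normalization). Neither group pair overlapped for HLA-B and CANX. CIITA, the master regulator of class II genes, was at 49.7 and 50.9 TPM against 50.8, 47.1 and 32.9 TPM, and at 155 and 152 TPM at D3. HLA-DRA, the alpha chain of HLA-DR, was at 192 and 171 TPM against 185, 183 and 219 TPM. HLA-DQA1 was the class II gene past the adjusted p, at 51.1 and 42.7 TPM against 30.4, 36.6 and 34.0 TPM, below the 233 and 243 TPM of D3. Its limma adjusted p was 0.0491 as deposited, 0.322 with quantile normalization and 0.274 with size factors.

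Antiviral genes held more calls than the preceding lists. Of 35 type I interferon-stimulated genes tested, 5 were called higher, 0 lower and 8 passed the adjusted p with a higher level (13 higher and 1 lower at an unadjusted p under 0.05, limma). The list's median was 0.11 beside 0.15 for all genes and turned to -0.03 with quantile normalization and -0.05 with size factors, so that the called genes stood out within a list that was not raised as a whole. BST2 (chromosome 19, 17402939 to 17405630), whose protein tethers budding virus to the cell surface, was at 8.10 and 7.32 TPM at D14 against 1.90, 1.70 and 2.35 TPM (log2 fold change 1.55 ± 0.12, limma adjusted p = 0.000158). Both D14 libraries exceeded every Untreated library, yet lay far below the 137 and 141 TPM of D3, the 136, 144 and 169 TPM of D28 and the 133 to 141 TPM of D28WO. OAS2 (chromosome 12, 112978395 to 113011723), which makes the oligoadenylate messenger that activates RNase L, was at 10.7 and 11.2 TPM against 3.16, 3.75 and 2.57 TPM (1.53 ± 0.13, limma adjusted p = 0.000266). At D3 it was at 61.6 and 68.7 TPM, so that D14 lay between the other groups.

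OAS1, a paralog of OAS2 beside it on chromosome 12, was at 24.1 and 22 TPM against 7.42, 13 and 7.82 TPM (log2 fold change 1.25 ± 0.22, limma adjusted p = 0.0124). MX2, a dynamin-like restriction factor, was at 27.2 and 25.6 TPM against 14.3, 9.5 and 10.2 TPM (1.17 ± 0.16, limma adjusted p = 0.00433). IFITM1, a membrane protein that blocks virus entry, was at 11.1 and 20.3 TPM against 4.53, 3.26 and 9.25 TPM (1.37 ± 0.33, limma adjusted p = 0.0384). None of the 3 overlapped between the groups, although the lower D14 library of IFITM1 lay close to Untreated replicate 3. The calls of BST2 and OAS2 held without each of the 5 libraries, and they were the 2 of the list called after quantile normalization, where OAS1, MX2 and IFITM1 missed a limit. The other 3 calls were less stable. MX2 was lost without D14 replicate 2 (adjusted p = 0.0524), OAS1 without D14 replicate 2 or 3 (highest adjusted p = 0.11) and IFITM1 without Untreated replicate 1 or 2 or D14 replicate 2 or 3 (highest adjusted p = 0.28). IFIH1, IFI44L and IFITM2 passed the adjusted p alone, with log2 fold changes of 0.70, 0.60 and 0.58, and IFIH1 and IFITM2 missed it with quantile normalization (0.105 and 0.0728). Other members of the list that mark a strong response were low, with RSAD2 at 0.234 and 1.06 TPM at D14 and IFI27 at 4.76 and 2.92 TPM, against 18.4 to 27.3 and 56.5 to 88.3 TPM at D3.

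**Figure D2:**
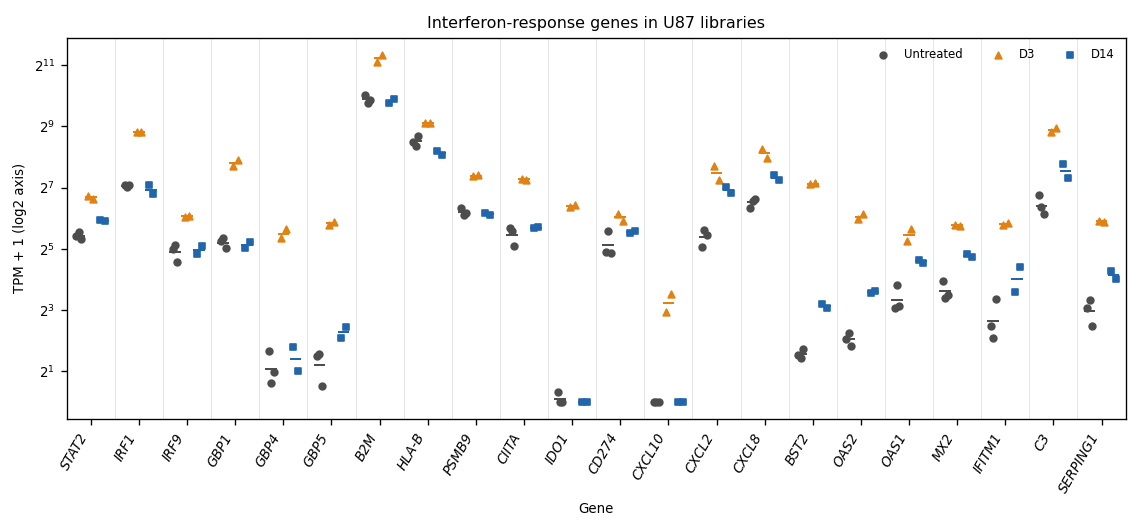
TPM + 1 (y axis, log2 scale) of 22 interferon pathway and target genes in each Untreated, D3 and D14 library, 1 point per library, with bars at the mean of the log2 values. For IDO1, CXCL10 and IRF1 the D14 points lie with Untreated, and for BST2 and OAS2 they lie between Untreated and D3.

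Of 5 guanylate-binding protein genes tested, GTPases that attack intracellular pathogens, 1 was called higher and 0 lower, with a median of 0.18 that turned to -0.05 with quantile normalization. GBP5 was at 3.27 and 4.46 TPM at D14 against 1.85, 1.98 and 0.441 TPM in Untreated (log2 fold change 1.07 ± 0.27, limma adjusted p = 0.0439), a call lost with quantile normalization and without Untreated replicate 3 or D14 replicate 2 or 3 (highest adjusted p = 0.252). GBP1, whose promoter is printed above, was at 31.7 and 36.6 TPM against 36.9, 39.5 and 31.3 TPM (-0.07 ± 0.10). D3 stood at 209 and 240.2 TPM, and D28 at 244 to 256 TPM.

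Among 16 chemokines 1 was called higher, 0 were lower and 3 passed the adjusted p with higher levels, and the median was 0.13. CXCL2 (chromosome 4, 74097040 to 74099196), a neutrophil attractant under NF-κB control, was at 130.0 and 112 TPM at D14 against 32.5, 47.6 and 42.4 TPM (log2 fold change 1.55 ± 0.16, limma adjusted p = 0.00137). The groups were far apart, and the call held without each library and after quantile normalization. CXCL8, a related neutrophil attractant, was at 168 and 150.4 TPM against 80.3, 94.1 and 97.7 TPM (0.81 ± 0.11, limma adjusted p = 0.0056). CXCL10, the T cell attractant that IFN-γ induces through its ISRE, was listed at 0 in all 5 libraries and at 6.59 and 10.4 TPM at D3. CCL2, a monocyte attractant, was at 24.3 and 23.0 TPM against 29.2, 25.9 and 21.1 TPM.

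NF-κB-responsive genes had a median of 0.23 over the 24 tested, with 0 called and 5 past the adjusted p with higher levels (limma, 10 higher and 1 lower at an unadjusted p under 0.05). The median was 0.05 with either quantile normalization or size factors. TNFAIP3, which shuts NF-κB signaling down, was at 22.1 and 19.9 TPM at D14 against 13, 12.9 and 11.3 TPM (log2 fold change 0.71 ± 0.11, limma adjusted p = 0.00824). ZC3H12A, an RNase that degrades cytokine transcripts, was at 40.6 and 41.9 TPM against 21.8, 25.8 and 21.6 TPM (0.81 ± 0.13, limma adjusted p = 0.0105). PTGS2, the inducible prostaglandin synthase, was at 27.7 and 30.7 TPM against 19.9, 17.0 and 19.1 TPM (0.62 ± 0.12, limma adjusted p = 0.0207). In each of the 3 the D14 libraries lay above all Untreated libraries. NFKBIA, the NF-κB inhibitor, and CXCL8 were the others. With quantile normalization TNFAIP3, ZC3H12A, PTGS2 and NFKBIA missed the adjusted p (0.0699, 0.051, 0.21 and 0.0618), and with size factors PTGS2 and NFKBIA missed it (0.0932 and 0.282).

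Complement genes also held calls, with 3 of 16 called higher, 0 lower and a median of 0.29, or 0.072 with quantile normalization and 0.12 with size factors. C3, the central component, was at 218 and 158 TPM at D14 against 106, 81.3 and 69.0 TPM (log2 fold change 1.13 ± 0.18, limma adjusted p = 0.00824). CFB, a protease of the alternative pathway, was at 27.8 and 22.1 TPM against 8.48, 14.3 and 12.9 TPM (1.03 ± 0.20, limma adjusted p = 0.0178). SERPING1, the inhibitor of C1, was at 18.5 and 15 TPM against 7.43, 9.02 and 4.53 TPM (1.19 ± 0.21, limma adjusted p = 0.0129). No D14 library overlapped Untreated, and all 3 genes were lower than at D3, where C3 stood at 447 and 497 TPM (for CFB an adjusted p of up to 0.0762 without D3 replicate 2 or D14 replicate 3). The list had 0 calls without D14 replicate 2 and 1 each without D14 replicate 3 and without Untreated replicate 3, as with quantile normalization and size factors.

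Feedback regulators and checkpoint ligands changed little. Of 11 feedback genes 1 was called higher, with a median of -0.06, or -0.10 with quantile normalization and -0.22 with size factors. Of 10 checkpoint ligand and IDO1 genes 0 were called (3 higher and 2 lower at an unadjusted p under 0.05, limma). Their median was 0.11, or 0.006 with quantile normalization and -0.04 with size factors. PTPN6, a phosphatase that acts on JAK kinases, was at 1.85 and 2.35 TPM at D14 and at 0, 0.593 and 0 TPM in Untreated (log2 fold change 1.40 ± 0.35, limma adjusted p = 0.0451), a call lost with quantile normalization and without Untreated replicate 1 or 3 or D14 replicate 2 or 3 (highest adjusted p = 0.204). SOCS1, an inhibitor of JAK kinases, was at 18.0 and 19.1 TPM against 19.8, 15 and 15 TPM. CD274 was at 44.5 and 46.4 TPM against 28.7, 46.9 and 28.1 TPM, and the groups overlapped because of Untreated replicate 2 (0.42 ± 0.18).

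**Figure D3:**
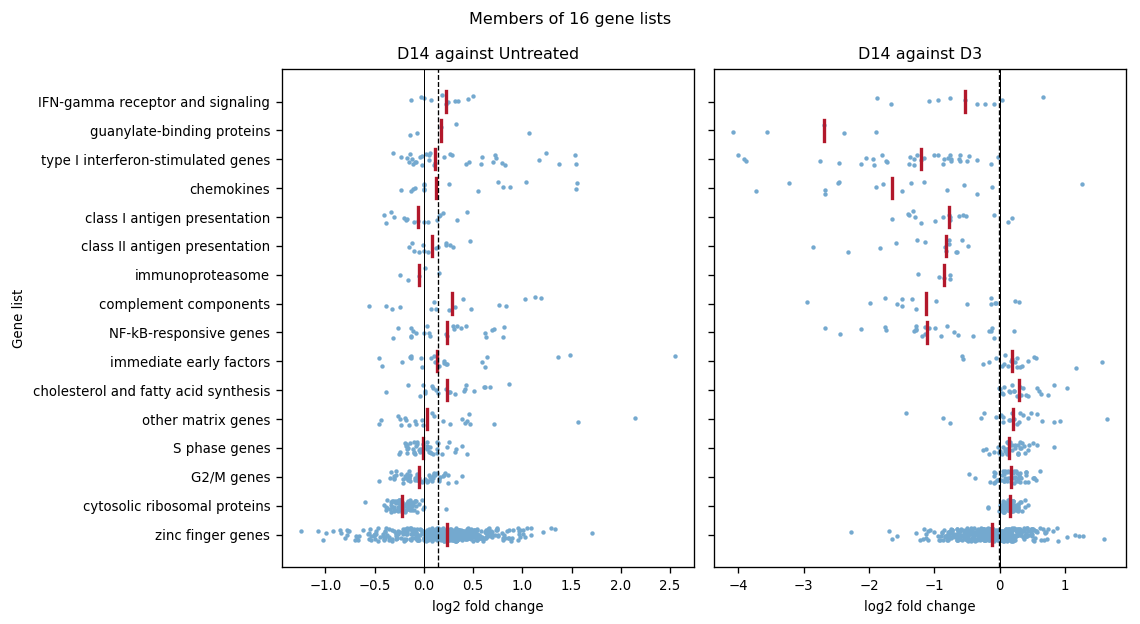
Log2 fold change (x axis) of the genes of 16 lists, 1 point per gene, for D14 against Untreated (left) and D14 against D3 (right), with a red bar at each list's median and a dashed line at the median of all genes. Against Untreated the list medians lie near the dashed line, whereas against D3 those of the guanylate-binding proteins (-2.68), chemokines (-1.64) and type I genes (-1.20) lie far below it.

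Cell cycle, ribosomal, zinc finger, lipid synthesis and histone lists gave few calls. Of 43 S phase genes and 54 G2/M genes 0 were called (limma, at an unadjusted p under 0.05 1 higher and 2 lower, and 3 higher and 8 lower), with medians of -0.01 and -0.05. The medians were -0.042 and -0.038 with quantile normalization and -0.19 and -0.23 with size factors. Cytosolic ribosomal proteins, which are among the most abundant transcripts, had a median of -0.22 over 86 genes, which became -0.01 with quantile normalization and -0.40 with size factors, with 0 called and 6 past the adjusted p with lower levels (0 higher and 45 lower at an unadjusted p under 0.05). Zinc finger genes, mostly low in level, had a median of 0.23 over 422 genes that turned to -0.03 with quantile normalization, and 3 were called higher and 1 lower, of which none was called without each library (highest adjusted p from 0.171 to 0.214). Cholesterol and fatty acid synthesis genes had a median of 0.24 over 22 genes, or 0.092 with quantile normalization and 0.057 with size factors, with 0 called (11 higher and 1 lower at an unadjusted p under 0.05). HMGCS1, which feeds the mevalonate pathway, was at 67.3 and 72.7 TPM at D14 against 41.4, 37.9 and 34.6 TPM (log2 fold change 0.87 ± 0.15, limma adjusted p = 0.0118). Of 61 replication-dependent histone genes, whose paralogs can share reads, 2 were called higher, H2AC25 and H3C2, with a list median of 0.45, or 0.17 with quantile normalization and 0.31 with size factors. The 14 tested genes of a silent list, keratin-associated, taste receptor and beta-defensin genes, had the same median of 0.45 with 0 called. Both histone calls were lost without D14 replicate 2 or 3 (highest adjusted p = 0.113 and 0.105).

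Of 22 immediate early factors tested 3 were called higher than in Untreated and 0 lower, and FOS was also called higher than at D3. The list's median was 0.14, or 0.058 with quantile normalization and -0.04 with size factors. FOS (chromosome 14, 75278826 to 75282230), a subunit of the AP-1 transcription factor, was at 346 and 366 TPM at D14 against 129, 152 and 134 TPM (log2 fold change 1.36 ± 0.11, limma adjusted p = 0.000208). D14 was the highest of the groups, with 126 and 114 TPM at D3 and 181 to 240.2 TPM at D28. FOSB, a further AP-1 subunit, was at 94.9 and 113 TPM against 15.1, 22.7 and 13.8 TPM (2.55 ± 0.39, limma adjusted p = 0.00786). ATF3, a stress-induced partner of AP-1 proteins, was at 81.8 and 84.6 TPM against 35.1, 28.1 and 25.1 TPM (1.48 ± 0.14, limma adjusted p = 0.000563). The groups were separate for all 3, but EGR1 at 156 and 164 TPM against 129.5, 151 and 169.5 TPM, and JUN at 181 and 173 TPM against 185, 183 and 214 TPM, did not pass. The calls of FOS and ATF3 held without each library, and that of FOSB was lost without D14 replicate 2 or 3 (highest adjusted p = 0.079).

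**Figure D4:**
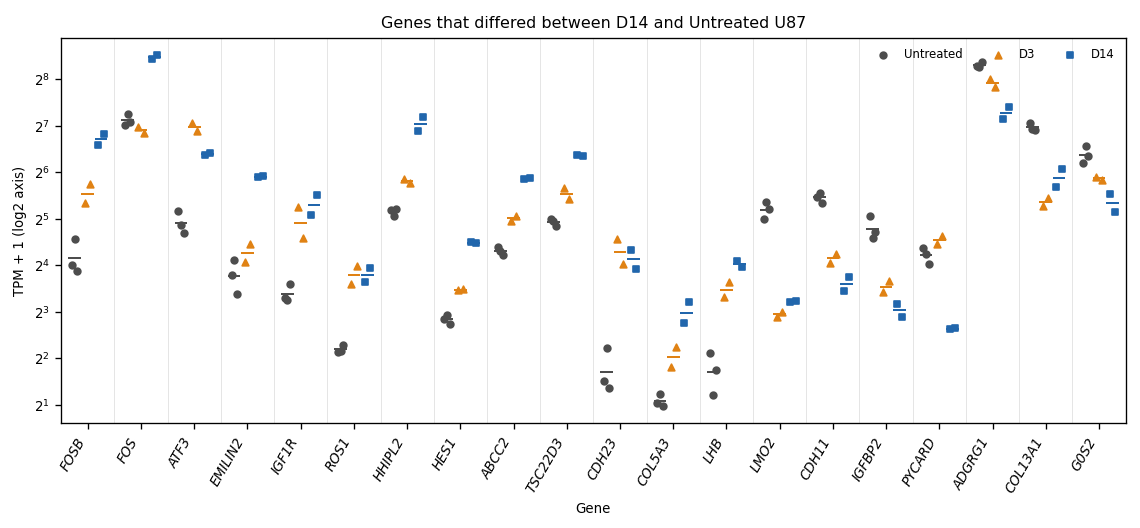
TPM + 1 (y axis, log2 scale) of 20 genes called higher or lower at D14 in each Untreated, D3 and D14 library, 1 point per library, with bars at the mean of the log2 values. For FOS and EMILIN2 the D14 points are the highest, and for CDH11 and LMO2 the D3 and D14 points both lie below Untreated.

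Some matrix and adhesion genes were called, although most members of these lists were not. EMILIN2 (chromosome 18, 2847006 to 2916003), an elastin-associated matrix glycoprotein, was at 58.7 and 59.2 TPM at D14 against 12.8, 16.3 and 9.46 TPM (log2 fold change 2.14 ± 0.26, limma adjusted p = 0.00228). It was at 15.9 and 21.1 TPM at D3 and at 31.6 to 46.8 TPM at D28, so that D14 was highest. CDH11 (chromosome 16, 64943753 to 65126112), a mesenchymal cadherin, was at 9.93 and 12.4 TPM against 43.3, 46.2 and 39.6 TPM (-1.86 ± 0.15, limma adjusted p = 0.000158). D3 was also low, at 15.6 and 18.0 TPM. Both calls held without each library and with either scaling. CDH23, a long cadherin of hair cells, was at 19.2 and 14.3 TPM against 1.84, 3.69 and 1.56 TPM (2.44 ± 0.31, limma adjusted p = 0.00325, and 0.0524 without D14 replicate 2). DCN, a small proteoglycan that is also in the fibroblast marker list, was at 29.1 and 17.4 TPM against 9.15, 7.75 and 4.68 TPM (1.56 ± 0.25, limma adjusted p = 0.00957, and 0.105 without D14 replicate 2). The 8 pericyte and fibroblast markers summed to 581.5 and 588 TPM at D14 against 506 to 551 TPM in Untreated, and their part in the DCN result was not tested. Of 30 collagen genes 1 was called higher and 2 lower (median 0.16, or 0.10 with quantile normalization and -0.0039 with size factors). Of 34 metalloprotease and inhibitor genes it was 3 and 0 (0.31, but 0.0033 with quantile normalization and 0.15 with size factors). Of 58 cadherins and protocadherins it was 1 and 3 (0.01, and -0.27 with quantile normalization). Of 24 other matrix genes 2 were called higher, EMILIN2 and DCN, and 0 lower (median 0.04, and -0.10 with size factors). None of 31 integrin and laminin subunits was called (limma, 4 higher and 6 lower at an unadjusted p under 0.05, median 0.09, but -0.03 with quantile normalization and -0.09 with size factors). None of 30 mesenchymal genes was called (limma, 9 higher and 7 lower at an unadjusted p under 0.05, median 0.0013, and -0.18 with size factors).

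COL5A3, a fibrillar collagen chain, was at 5.78 and 8.22 TPM at D14 against 1.06, 1.34 and 0.969 TPM (log2 fold change 1.90 ± 0.27, limma adjusted p = 0.00587, and 0.0622 without D14 replicate 3). COL22A1, a collagen of tissue junctions, was at 2.44 and 2.21 TPM against 14.4, 14.7 and 9.56 TPM (-2.04 ± 0.37, limma adjusted p = 0.0139), and COL13A1, a transmembrane collagen, at 50.5 and 66.7 TPM against 133, 121 and 119 TPM (-1.08 ± 0.19, limma adjusted p = 0.0138). The groups did not overlap for any of these chains. Without D14 replicate 2 or 3 neither COL22A1 nor COL13A1 stayed called (highest adjusted p = 0.104 and 0.133). The metalloprotease calls were ADAMTS13, ADAMTS14 and MMP15, with log2 fold changes of 1.40, 1.34 and 1.13, and none held without D14 replicate 2 or 3 (highest adjusted p = 0.119, 0.212 and 0.12). PCDH17 and PCDH10, the protocadherins called lower, had log2 fold changes of -1.01 and about -1 and lost their calls without any of 4 and 5 of the libraries (highest adjusted p = 0.219 and 0.271).

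Among genes of growth factor signaling, 2 of 19 receptor tyrosine kinases were called higher and 0 lower. The list median was 0.15, or 0.071 with quantile normalization and 0.038 with size factors. None of 30 PI3K-AKT-mTOR components and none of 22 TGF-β ligands, receptors and targets was called (limma, at an unadjusted p under 0.05 4 higher and 3 lower, and 1 higher and 4 lower). Their medians were 0.089 and -0.02. The first turned to -0.04 with quantile normalization and -0.09 with size factors, and the second to -0.10 and -0.19. IGF1R (chromosome 15, 98648539 to 98964530), the receptor for insulin-like growth factors, was at 33.0 and 44.3 TPM at D14 against 8.86, 8.48 and 11 TPM (log2 fold change 1.92 ± 0.22, limma adjusted p = 0.00197). ROS1, a receptor tyrosine kinase, was at 11.4 and 14.4 TPM against 3.40, 3.47 and 3.90 TPM (1.60 ± 0.18, limma adjusted p = 0.00184). HES1, a repressor downstream of Notch, was at 21.6 and 21.2 TPM against 6.15, 6.64 and 5.67 TPM (1.65 ± 0.17, limma adjusted p = 0.00137). TSC22D3 (chromosome X, 107713221 to 107777342), a glucocorticoid-induced leucine zipper protein, was at 81.8 and 80.3 TPM against 31.1, 29.9 and 27.9 TPM and had an adjusted p equal to the lowest of the genes named (1.42 ± 0.10, limma adjusted p = 8.1e-05). ABCC2, an efflux transporter of conjugates, was at 57.1 and 57.9 TPM against 19.9, 18.9 and 17.7 TPM (1.56 ± 0.13, limma adjusted p = 0.000158). HHIPL2 was at 117 and 144 TPM against 35.7, 32.4 and 36.2 TPM (1.87 ± 0.21, limma adjusted p = 0.00161). In all 6 genes the lowest D14 library was above the highest Untreated library, and the calls held without each library. HES1, TSC22D3, ABCC2 and HHIPL2 were named after their values were seen, as genes called in every such fit.

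Among the lower genes, LMO2 (chromosome 11, 33858576 to 33892076), a transcriptional adaptor of blood and vessel development, was at 8.25 and 8.41 TPM at D14 against 31.1, 40.4 and 36.2 TPM (log2 fold change -1.98 ± 0.22, limma adjusted p = 0.00161). It was at 6.45 and 6.95 TPM at D3 and 3.33 to 6.47 TPM at D28, and at 15.3 to 18.4 TPM at D28WO, between D14 and Untreated. PYCARD (chromosome 16, 31201486 to 31203450), the adaptor of the inflammasome, was at 5.15 and 5.34 TPM against 19.6, 18.1 and 15.4 TPM (-1.58 ± 0.18, limma adjusted p = 0.00197). D14 was the lowest group, since D3 stood at 21.0 and 23.9 TPM and D28 at 9.53 to 14.6 TPM. IGFBP2, a carrier of insulin-like growth factors, was at 8.01 and 6.44 TPM against 32.6, 23.2 and 25.1 TPM (-1.76 ± 0.24, limma adjusted p = 0.00533, and 0.0622 without D14 replicate 3). CELF2, a splicing regulator, was at 0.926 and 0.477 TPM against 4.52, 4.54 and 3.77 TPM (-1.64 ± 0.27, limma adjusted p = 0.0106, and 0.0819 without D14 replicate 3). The D14 libraries lay below every Untreated library in each. ADGRG1, an adhesion receptor, was the most abundant of the lower genes described, at 141 and 167 TPM against 309, 307 and 332 TPM (-1.03 ± 0.11, limma adjusted p = 0.00137), a call lost without Untreated replicate 3 or D14 replicate 2 (-0.91 at its smallest) and with quantile normalization (-0.87), where the change was under the fold limit. ESM1, an endothelial proteoglycan, and DMBT1, a scavenger receptor, fell by 1.73 and 1.85 on the log2 scale with 1 of 5 such fits keeping each call (highest adjusted p = 0.169 and 0.233).

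Beside FOSB and CDH23, the 12 largest fitted rises among protein-coding genes held genes of low level or with close copies, and most of these calls were lost without 1 of the libraries. EIF3CL, a near copy of EIF3C, was at 13.1 and 15.3 TPM at D14 and at 4.06 TPM in Untreated replicate 1 but at 0.000395 and 0.000725 TPM in the other two. CGB3 and LHB, genes of the gonadotropin beta cluster that share sequence, were at 11.2 and 10.8 TPM and at 16.1 and 14.5 TPM, against 0, 0 and 3.22 TPM and 3.36, 1.32 and 2.37 TPM. How reads were divided among such copies, or between STX16-NPEPL1, a readthrough transcript at 12 and 11 TPM against 1.09 to 1.86 TPM, and the genes it spans, cannot be told from TPM. SULF1, a heparan sulfatase, was at 11.6 and 10.0 TPM against 0.202, 0.365 and 3.29 TPM (log2 fold change 2.62 ± 0.53, limma adjusted p = 0.0219, and up to 0.145 without 1 library). CD52, a small leukocyte surface protein, was at 2.59 and 7.83 TPM against 0, 0 and 0.749 TPM (2.23 ± 0.39, limma adjusted p = 0.0129, and 0.0975 without D14 replicate 3). NKG7, a leukocyte marker listed at 0 in every Untreated library, was at 1.01 and 2.27 TPM, and its call was lost without any of the 5 libraries (highest adjusted p = 0.206). The D14 libraries exceeded the Untreated libraries in all of these. STMN4, a neuronal microtubule regulator at 8.46 and 5.21 TPM against 0.422 to 0.583 TPM, was the gene of this kind whose call held without each library. The 8 neuron markers, which do not include STMN4, summed to 168 and 169 TPM at D14 against 122 to 130.1 TPM in Untreated. Their median log2 fold change was 0.59 over the 5 tested, or 0.28 with quantile normalization and 0.53 with size factors. None was called (limma, 4 higher and 0 lower at an unadjusted p under 0.05). The defining marker RBFOX3 was at 0.578 and 1.27 TPM at D14, and the part of these markers in the STMN4 result was not tested. The calls of EIF3CL and CGB3 held in 1 of 5 such fits, NSUN5 in 3, STX16-NPEPL1 in 3 and LHB in 4 (highest adjusted p = 0.229, 0.156, 0.113, 0.106 and 0.0585).

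Non-coding RNAs were among the calls as well, and many called protein-coding genes are not described here. MALAT1, a long RNA retained in the nucleus, was at 233 and 250.6 TPM at D14 against 80.4, 144 and 87.8 TPM (log2 fold change 1.25 ± 0.28, limma adjusted p = 0.0296), a call lost without Untreated replicate 1 or 3 or D14 replicate 2 or 3 (highest adjusted p = 0.167). NEAT1, the scaffold of paraspeckles, was at 186 and 172 TPM against 90.5, 109 and 108 TPM (0.81 ± 0.11, limma adjusted p = 0.00448). All 8 nuclear-retained RNAs tested had positive log2 fold changes, as had 65.7% of all genes, with 1 called and a median of 0.60, or 0.43 with quantile normalization and 0.42 with size factors. MIR503HG, the host of a microRNA cluster on chromosome X, was at 23.3 and 18.8 TPM against 4.16, 7.25 and 3.49 TPM (1.93 ± 0.23, limma adjusted p = 0.00197) and was called without each library. RN7SL2, a copy of the signal recognition particle RNA, was listed at 0 in both D14 libraries and at 8.23, 8.56 and 13.3 TPM in Untreated, whereas the pseudogene copy RN7SL615P was at 9.62 and 10.5 TPM at D14 and listed at 0 in every Untreated and D3 library. Reads of these near-identical copies can move between them, so that neither value stands for 1 gene with certainty.

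Against D3, the comparison that uses the same D14 libraries but no Untreated library, 132 genes were higher at D14 (0.576%) and 470 were lower (2.05%), in limma with the same limits, and the median of all genes was -0.012. The adjusted p alone was passed by 1.47% as higher and by 3.32% as lower. For all of the 132 and 470 the D14 and D3 libraries were apart, as they were for 22.8% (higher) and 25.7% (lower) of all genes. The higher share of the calls was 21.9%, or 32.1% with quantile normalization (201 higher, 425 lower). Leaving out D3 replicate 2 gave 61 higher and 278 lower, D14 replicate 2 gave 69 and 282, and D14 replicate 3 gave 73 and 308. With only these 2 groups of 2 libraries in the fit 0 genes passed in either direction (1824 higher and 2349 lower at an unadjusted p under 0.05), so that the calls rest on the spread pooled over the 5 U87 groups.

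The largest falls among protein-coding genes were in interferon targets and acute phase genes, with a metallothionein, MT1G, among them. RN7SL2, which is not protein-coding, fell by 3.98 on the log2 scale. BST2 fell by 4.01 on the log2 scale from D3 to D14 (limma adjusted p = 1.74e-08), GBP4 by 4.08 (1.72e-05), BATF2, an interferon-induced transcription factor, by 3.94 (1.71e-07), and APOL4, an apolipoprotein L gene, by 4.04 (1.02e-05). BATF2 was at 4.97 and 3.96 TPM at D14, at 83.9 and 81.6 TPM at D3 and at 3.94, 5.13 and 3.21 TPM in Untreated, so that D14 overlapped Untreated and not D3. The acute phase gene SAA1 was listed at 0 and at 0.352 TPM at D14 against 38.2 and 43.1 TPM at D3, and IDO1 was listed at 0 against 81.3 and 85.9 TPM. By list, 19 of 35 type I genes, 9 of 16 chemokines, 13 of 24 NF-κB-responsive genes, 8 of 16 complement genes, 6 of 17 class I genes, 6 of 14 class II genes and 5 of 5 guanylate-binding proteins were lower, and 0 members of these lists were higher. Their median log2 fold changes were -1.20, -1.64, -1.11, -1.12, -0.78, -0.83 and -2.68, beside -0.012 for all genes. Leaving out a library of D3 or D14 removed none of the calls of BST2, BATF2, GBP4 or IDO1.

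Fewer genes were higher at D14 than at D3. Of these 132, 13 had a D14 mean within the range of the Untreated libraries and 51 were more than 1 above Untreated on the log2 scale, with a median difference to Untreated of 0.80. In MEST and SCUBE3 the D14 mean lay within the Untreated range, and in CCDC178 both D14 libraries lay below it. MEST, an imprinted gene, was at 91.1 and 83.6 TPM at D14, 21.9 and 20.2 TPM at D3 and 88.1, 72.1 and 72.3 TPM in Untreated (D14 against D3, log2 fold change 2.00 ± 0.23, limma adjusted p = 0.000291). SCUBE3, a secreted EGF-domain protein, was at 14.3 and 16.8 TPM, 2.54 and 3.69 TPM and 14.5, 17.6 and 12.9 TPM in the same order (2.02 ± 0.29, limma adjusted p = 0.00169). CCDC178 was at 5.96 and 8.09 TPM, 0.498 and 0.317 TPM and 10.9, 9.38 and 8.68 TPM (2.50 ± 0.35, limma adjusted p = 0.00139). D14 and D3 were apart in all 3. FOS and EMILIN2 were also higher than at D3, with log2 fold changes of 1.56 (limma adjusted p = 1.86e-05) and 1.64 (adjusted p = 0.00564), the latter lost without D3 replicate 2 or D14 replicate 2 or 3 (highest adjusted p = 0.0792). KRT19, an epithelial keratin, was at 5.11 and 6.28 TPM at D14 against 0.629 and 0.521 TPM at D3, with the 7 epithelial markers summing to 61.3 and 65.7 TPM at D14 and 42.6 to 57.5 TPM at D3. The part of these markers in the KRT19 result was not tested, and its call was lost without any of the 4 libraries (highest adjusted p = 0.091).

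Promoter sequences, 300 bases from 250 before to 50 after the RefSeq start, were at hand for 215 of the 433 higher genes (286 promoters) and for 27 of the 48 lower genes (45 promoters). An ISRE match stood in 4.55% of the promoters of higher genes and a GAS match in 6.29%, beside 3.07% and 6.56% of all 19008 promoters of genes tested. For the 45 promoters of lower genes the shares were 6.67% (3 promoters) and 8.89% (4 promoters). Of the 417 promoters of genes lower at D14 than at D3, 14.6% held an ISRE match and 11% a GAS match. In the type I list 67.5% of 40 promoters held an ISRE match. AP-1 matches (TGANTCA, either strand), the element FOS proteins bind, were in 6.64% of promoters of genes higher than in Untreated, 11.1% of those of genes lower than in Untreated and 6.02% of all. Against D3 they were in 14.8% of the 115 promoters of higher genes and 11.8% of those of lower genes. The 250 bases before the start of FOS held none of the ISRE, GAS or AP-1 patterns. These counts describe letters in a window and not binding.

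**Figure D5:**
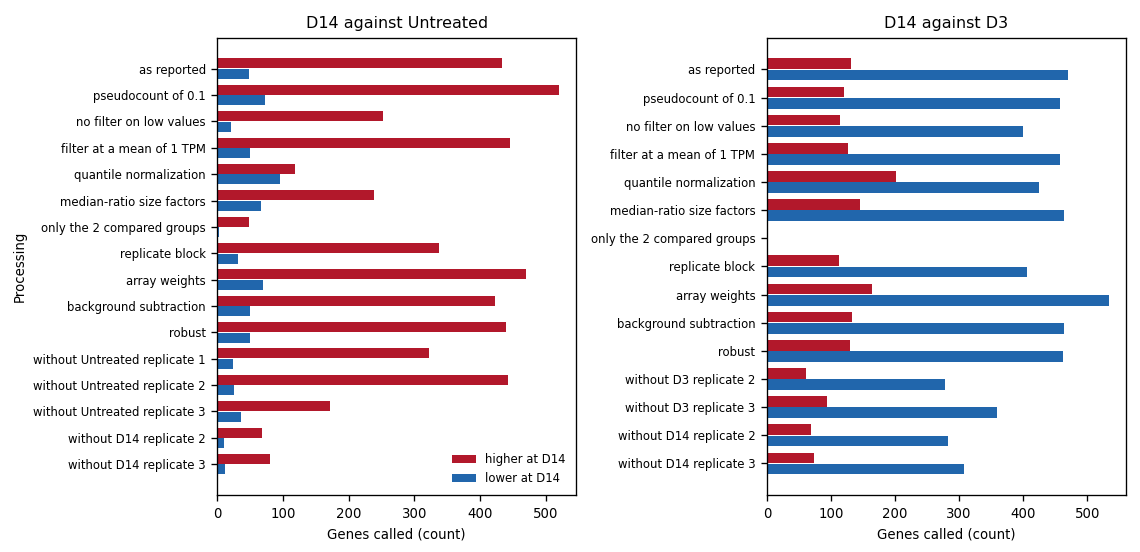
Number of genes called higher and lower at D14 (x axis) against Untreated and against D3 under each way of processing (y axis). Against Untreated the number of higher genes ranges from 48 with only the 2 compared groups in the fit to 520 with a pseudocount of 0.1.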

How the data were processed

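RNA of U87 cells was sequenced as 150 bp paired-end reads. Per the labels, FastQC, Trim Galore, STAR, featureCounts and edgeR were run on GRCh38. Strandedness and the step from counts to TPM are not given in the sources used here. The authors deposited TPM per gene, scaled to 1 total per library, in 1 table for U87. Sequencing depth can therefore not be read from the files, and zeros carry no detection limit. A supplementary sheet names the unit CPM, yet low values became smaller as transcripts became longer (Spearman's rho = -0.201 over 2039 genes), which is how TPM behave. The table holds 2 columns with an identical name, which entered no step, so that D3 and D14 kept replicates 2 and 3. Groups follow the labels.

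Values were taken as log2(TPM + 1), a scale that understates fold changes of low genes. The 22918 genes averaging 0.5 TPM or more over 13 libraries were fitted with limma 3.58.1 in R 4.3.3 (lmFit, then eBayes with its trend option), using all 5 U87 groups and no covariate. Calls needed a Benjamini-Hochberg adjusted p under 0.05 over all genes and a log2 fold change beyond 1 in size. The code was first tested on simulated data drawn from these libraries. Library values were compared by two-sided exact permutation tests. Genes were named as the 12 largest rises and falls among called protein-coding genes with separate libraries (5 among other biotypes, 10 against D3), plus up to 6 called genes and the 2 leading genes of each list, and further genes were chosen after their values were seen. Of the genes named or chosen in these ways, 2 are not reported here, and those without a symbol are not described. The members and lists were chosen with earlier results of these data known. Coordinates come from GENCODE release 44, promoters from RefSeq (GRCh38.p14, 13298 genes matched). Python 3.11.15, pandas 2.3.3 and matplotlib 3.10.9 made the tables and figures. Alternatives changed the pseudocount (0.1), the filter (none, or 1 TPM), the scaling (quantile, median-ratio size factors, subtracted background), the fit (2 groups alone, a block for replicate numbers, weights per library, robust fitting), the limits (adjusted p alone) or the libraries (leaving out each).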

Additional observations from a re-analysis of the deposited data

Results flagged for a closer look

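The response at D14 differed from that at D3 by a direct test. In limma with Benjamini-Hochberg adjustment, 132 genes were higher and 470 genes lower at D14 than at D3, and since both groups are set against the same Untreated libraries, these are differences between the effects at the 2 times. For BST2 the log2 difference was -4.01 ± 0.13 (SE) and for FOS it was 1.56 ± 0.12.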

How the results depend on the processing

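Against Untreated, 433 genes were higher and 48 lower as reported. The numbers were 252 and 21 with no filter on low values, 118 and 95 after quantile scaling, 239 and 66 after scaling by size factors, 48 and 3 with only the 2 compared groups and 948 and 234 with the adjusted p alone. Against D3, 132 and 470 became 201 and 425 with quantile normalization, 0 and 0 with only the 2 groups (limma, 1824 and 2349 at an unadjusted p under 0.05) and 337 and 761 with the adjusted p alone. Leaving out 1 library gave 68 to 442 higher and 10 to 36 lower genes against Untreated, and 61 to 94 and 278 to 359 against D3. The cause was not tested, except that the fit of 2 groups has fewer libraries to estimate the spread. The other alternatives kept these counts within 1.5 times. For 276 genes, alternative values were compared by the adjusted p alone, without the fold limit. Of 4133 values against Untreated and 3857 against D3, 0 changed sign where either fit had an adjusted p under 0.05. The adjusted p rose past 0.05 in 709 and 203 of them and fell below it in 16 and 42.

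With the replicate number as a block, 337 genes were higher and 32 lower than in Untreated, and 112 and 406 than at D3. Deviations of replicates 2 and 3 correlated between groups by -0.046 to 0.045, so that the numbers were not taken to pair the libraries. The mean of silent genes was 0.0257 TPM higher at D14 than in Untreated for olfactory receptors (exact p = 0.3) and 0.0598 TPM for keratin-associated, taste receptor and beta-defensin genes (exact p = 0.1).

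How far depth limits values near 0 cannot be read from TPM. With 2 libraries at D14, p = 0.1 is the smallest an exact test allows, and a call that ends when 1 of them is left out rests on both. The treatment of the D14 libraries was taken from their labels.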
